A study of Homo sapiens with 12 samples.

Results

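The response of THP-1 cells to honokiol is described here across the genes and pathways of this line. THP-1 is a human cell line of acute monocytic leukemia, a form of acute myeloid leukemia (AML), which the labels list with a complex karyotype, and honokiol is a biphenol from the bark of Magnolia species. Poly(A) mRNA was sequenced as 3 libraries labelled honokiol and 3 labelled DMSO, the solvent, after 24 h. The labels give 0.1% DMSO for the controls and list 20 or 35 µM honokiol without naming the line, so the dose behind these libraries is not given. In its cell-cycle assay of 24 h the paper used 20 µM for THP-1, and its sequencing methods name no dose. All cells come from this 1 line, and no group without solvent was sequenced. The labels number the libraries 1 to 3 in each group and do not say that they are separate cultures or experiments, so the p-values measure the spread between these libraries, which may be technical.

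For each gene and library the deposited table holds FPKM and an estimated count. FPKM scales the sequenced fragments to the length of the transcript and the size of the library, so levels can be compared between genes on that scale. A gene was included where FPKM reached 0.5 in 3 or more of the 6 libraries, which held for 14600 of the 36866 genes listed. Single libraries held 13744 to 14822 genes past that limit. Values of single libraries are given in the order of replicates 1 to 3, with DMSO before honokiol.

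Monocytic cells handle lipid through nuclear receptors. Liver X receptors and retinoid X receptors switch on the transporters that carry cholesterol out of the cell, and peroxisome proliferator-activated receptors (PPARs) switch on fatty acid oxidation and the proteins that coat lipid droplets. Cells short of amino acids or under stress of the endoplasmic reticulum make the transcription factor ATF4, which raises amino acid synthesis and transport. Ferroptosis, the iron-dependent cell death that the study followed, depends on lipid peroxidation. The cystine transporter SLC7A11 protects cells from it. The heme oxygenase HMOX1 releases iron from heme, and the paper describes it as protective at a proper level and as promoting ferroptosis when overexpressed.

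The estimated counts summed to between 60971601 and 75065752 per library. Among the low values, 4 was seen 8403 times, 1 and 2 were seen 5109 and 4947 times, 8 was seen 4558 times, and 3 and 5 were seen 3370 and 1984 times. A fragment may therefore often be worth more than 1 count, and the number of fragments is not known. DMSO replicate 1 stood apart. Mitochondrially encoded genes took 13.7% of its counts, against 6.24% to 7.55% in the other libraries, and on the first principal component (41.3% of the variance) it lay at -53.4, against -13.9 and 1.76 for the other DMSO libraries and 12.5 to 32.7 for the honokiol libraries. On this axis honokiol replicate 1 lay nearest to the DMSO libraries. In log2 counts scaled to a fixed total, its highest correlation with a DMSO library was 0.9818, against 0.9799 with a honokiol library. DMSO replicates 2 and 3 reached 0.9818 and 0.9813 with a honokiol library, against 0.9808 within their group. By these correlations the libraries did not group cleanly by treatment. All 10 markers of the labelled cell type were past the limit, with FPKM of 142, 74.7 and 74.4 for SPI1 and 141, 98.3 and 125 for LYZ in the DMSO libraries. Of the defining markers of T cells, CD3D, CD3E and CD2 had an FPKM of 0.23 or less in every library, and of those of fat cells PLIN1, LEP and CIDEC had 0.22 or less, while FABP4 reached 32.1 with honokiol. The summed FPKM of the epithelial, liver and fibroblast markers was between 1.32 and 1.87 in every library.

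Honokiol was compared with DMSO by edgeR's quasi-likelihood test on the counts, with Benjamini-Hochberg adjustment over the 14600 genes. Genes were called differentially expressed (DEG) with adjusted p below 0.05 and a log2 fold change beyond 1 in either direction. By this test 6 genes were DEGs, 0.0411% of those tested. ABCG1 (chromosome 21) rose most clearly. It encodes the transporter that passes cholesterol to high-density lipoprotein. Its FPKM was 0.56, 0.65 and 0.86 in the DMSO libraries and 3.36, 3.54 and 4.52 in the honokiol libraries, with no overlap, and its log2 fold change was 2.41 (standard error 0.21, adjusted p = 0.0433). MGLL (chromosome 3), the lipase that cleaves monoglycerides, rose from an FPKM of 2.06, 1.68 and 1.85 to 5.11, 7.5 and 6.6 (log2 fold change 1.71, standard error 0.19, adjusted p = 0.0458). No other tested gene overlaps either of them on its strand, and for both the treatments lay apart. In the mRNA of a whole culture, more RNA in every cell and more cells with that RNA cannot be told apart.

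CERS1 and GDF1 moved in opposite directions. CERS1 makes ceramide in neurons and muscle, GDF1 is a ligand of the TGF-beta superfamily, and the human locus on chromosome 19 is known to give a transcript that carries both reading frames. GDF1 rose from an FPKM of 0.85, 0.85 and 0.96 to 8.35, 4.54 and 4.82 (log2 fold change 2.68, standard error 0.29, adjusted p = 0.0458). CERS1 fell from 6.27, 7.53 and 7.02 to 1.6, 1.33 and 2.22 (log2 fold change -2.07, standard error 0.21, adjusted p = 0.0458). The genes overlap on the same strand, so that the counting had to share fragments between them. Their summed level in CPM, counts scaled to a fixed total per library, was 30.1, 36.0 and 34.0 with DMSO and 32.6, 19.7 and 24.5 with honokiol. The sum thus overlapped between treatments, with a ratio of 0.767, while the division between the genes did not overlap. Whether transcription or the assignment of fragments changed was not tested.

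**Figure D1:**
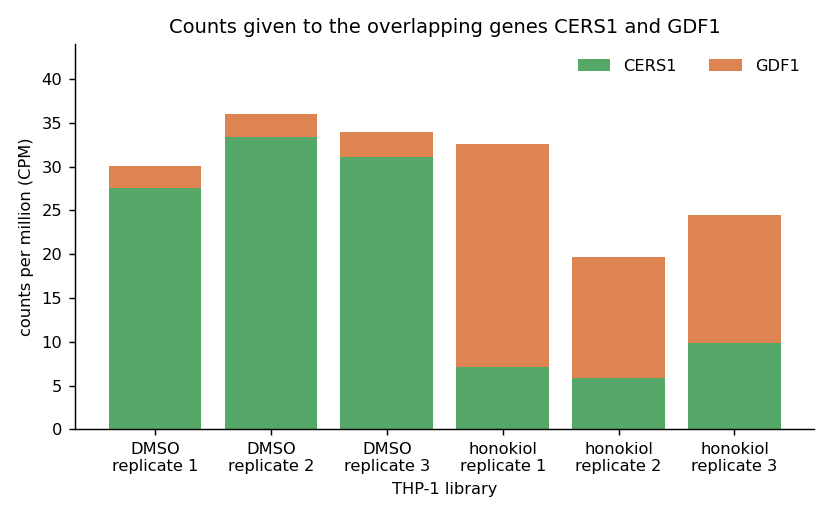
CPM of CERS1 and GDF1 stacked for each THP-1 library (x axis: library, y axis: CPM). GDF1 takes 2.56 to 2.92 CPM in the DMSO libraries and 13.8 to 25.5 CPM in the honokiol libraries, while the whole bar runs from 19.7 to 36.0 CPM.

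The other DEGs carry clone names and also overlap genes on their strand. AC242842 (ENSG00000286185, chromosome 1) overlaps NBPF19 and NOTCH2NLC, members of near-identical gene families, and had counts of 10, 15 and 1 in the DMSO libraries and of 735, 1147 and 909 in the honokiol libraries (adjusted p = 0.0458). AC004080 (ENSG00000257184, chromosome 7) spans HOXA9 and HOXA10, homeobox genes of myeloid leukemia, and had counts of 41, 72 and 58 in the DMSO libraries and of 0, 1 and 0 in the honokiol libraries (adjusted p = 0.0458). NBPF19 itself was lower (log2 fold change -1.05). Counts of such overlapping genes depend on how the authors' counting split the fragments.

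The number of DEGs turned on the method and on single libraries. DESeq2 called 250 genes from the same counts, limma-trend on log2(FPKM + 0.5) called 0, and 220 genes met the unadjusted criterion by limma-trend. Without honokiol replicate 1 there were 48 DEGs, the 6 above among them. Without DMSO replicates 1, 2 and 3 there were 1, 0 and 5, and without honokiol replicate 2 or 3 there were 0. Of 17 other settings, ABCG1 was a DEG in 8 and MGLL and GDF1 each in 6, and their log2 fold changes stayed between 1.5 and 2.56, 1.36 and 1.85, and 1.83 and 2.84.

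**Figure D2:**
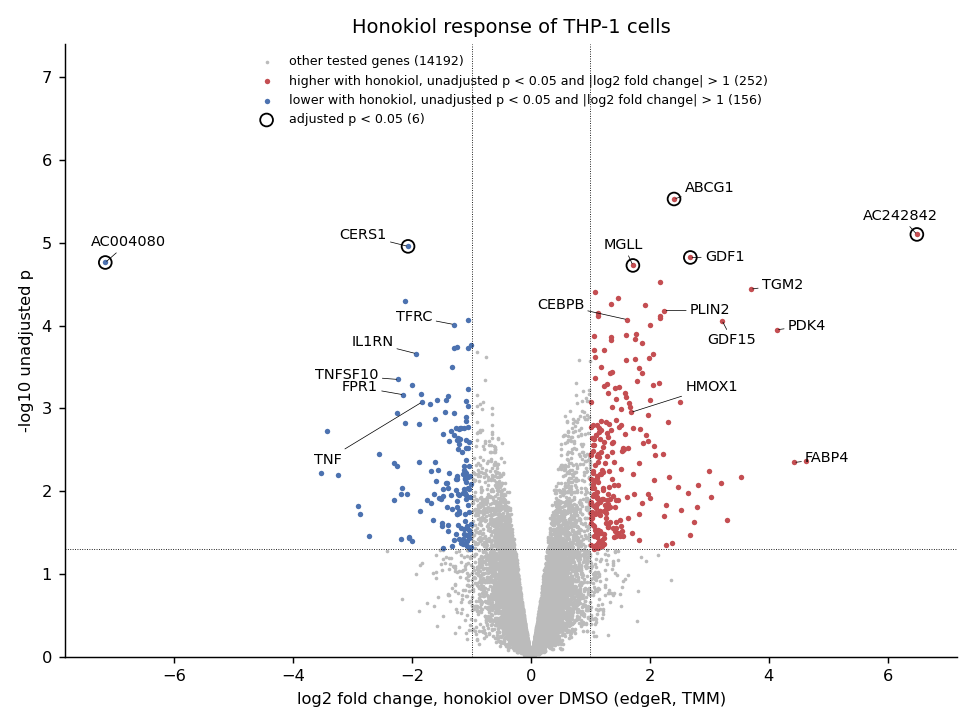
Each point is 1 of the 14600 genes tested in THP-1 (x axis: log2 fold change of honokiol over DMSO, y axis: -log10 of the unadjusted p). The 6 circled genes pass the adjusted threshold, red and blue points are the 252 higher and 156 lower genes at the unadjusted criterion, and the dotted lines mark that criterion.

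Since the adjusted test left few genes, groups of genes are described by a wider criterion, an unadjusted p under 0.05 with an absolute log2 fold change over 1. It was met by 408 of the 14600 genes (2.79%), 252 higher with honokiol (1.73%) and 156 lower (1.07%). The count of every list below is to be read against these shares. In a short list, 0 or 1 gene past the criterion is near them and is no result about the list. Genes named under this criterion did not pass the adjusted test unless that is said. Without the fold limit, 13.1% of the genes had an unadjusted p under 0.05, 6.84% with higher and 6.22% with lower values. The 3 honokiol libraries lay above all 3 DMSO libraries for 13% of the genes and below them for 7.62%. The log2 fold change of the median gene was -0.0011. Leaving out 1 library changed the count at the criterion by over 1.5 times in 17 of the 34 gene lists described next, and the median, by over 1.5 times and 0.05, in 25.

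Large differences were few. The median gene of the 252 was 2.47-fold higher and the median gene of the 156 was 2.38-fold lower, with 39 and 25 genes past 4-fold. Treatments lay apart, with no overlap of their libraries, for 233 of the 252 and for 128 of the 156. The criterion picked these genes by p and fold in the same libraries, so it partly sets these medians and counts. Honokiol replicate 1 was the honokiol library nearest to DMSO in 171 of the 252 and in 93 of the 156. Without it 649 genes met the criterion, 332 higher and 317 lower, and without DMSO replicate 3 it was 627, 418 higher and 209 lower. Genes with low levels met the criterion most often, 5.21% of those with a mean FPKM under 1, 2.90% from 1 to 10, 1.02% from 10 to 100 and 0.704% at 100 or more. Of the 408 genes, 75 (18.4%) overlapped another tested gene on the same strand. That share was not computed over all genes tested, so whether it is high is not known.

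The promoters of the genes past this criterion were searched for several short motifs, and the TATA box is described first. This element binds the general transcription machinery shortly before the start site of many genes with sharply regulated transcription. The letters TATAAA, searched on both strands from 250 bases before to 50 after the start site, were found in 11.9% of the 134 higher genes and 14.1% of the 71 lower genes that had a RefSeq promoter (GRCh38.p14), against 5.54% of the 9692 tested genes with a promoter and 12.1% of all 27305 promoters. Of the other motifs, the antioxidant response element was found in 10.4% of the higher and 12.7% of the lower genes, against 15.4% of tested genes. The C/EBP motif had 3.73% and 5.63% against 6.99%, and the kappaB motif 2.99% and 8.45% against 7.67%. The E-box had 11.2% and 7.04% against 10%, and the CCAAT box 40.3% and 31% against 36.5%. Rarer motifs are not reported here, and no motif was tested between the groups. RefSeq promoters matched 63 of the 84 named genes, and in 12 of these a TATAAA match began 28 to 33 bases before the start site. The promoters of 9 genes whose values follow are printed because they hold that element at its usual place in genes of both directions. Each runs from 60 bases before the start site to 10 after it on the strand of the gene, with TATAAA, or TTTATA where it lies on the other strand, in capitals. In ID1 matches on both strands overlap. A match is a description of the letters and not a site of binding.
PLIN2, higher, (chr9:19127483-19127552, minus strand): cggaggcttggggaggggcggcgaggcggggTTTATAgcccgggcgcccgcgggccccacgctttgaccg
ABCA1, higher, (chr9:104928146-104928215, minus strand): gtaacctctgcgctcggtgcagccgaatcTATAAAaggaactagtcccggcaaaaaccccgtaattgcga
GDF15, higher, (chr19:18386098-18386167, plus strand): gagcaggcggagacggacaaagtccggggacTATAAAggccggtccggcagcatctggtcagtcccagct
ANGPTL4, higher, (chr19:8364095-8364164, plus strand): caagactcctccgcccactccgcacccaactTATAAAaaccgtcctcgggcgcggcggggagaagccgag
ID1, higher, (chr20:31605229-31605298, plus strand): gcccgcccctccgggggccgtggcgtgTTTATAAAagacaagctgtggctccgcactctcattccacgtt
TNF, lower, (chr6:31575505-31575574, plus strand): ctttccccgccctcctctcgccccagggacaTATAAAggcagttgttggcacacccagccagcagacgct
F3, lower, (chr1:94541750-94541819, minus strand): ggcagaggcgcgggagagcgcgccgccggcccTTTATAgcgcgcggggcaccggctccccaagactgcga
TNFSF10, lower, (chr3:172523421-172523490, minus strand): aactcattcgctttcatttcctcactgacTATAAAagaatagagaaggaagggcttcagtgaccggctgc
TFRC, lower, (chr3:196082081-196082150, minus strand): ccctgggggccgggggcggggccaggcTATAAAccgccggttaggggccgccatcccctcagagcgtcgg

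The 34 gene lists were written with earlier results of these data known, so their shares are descriptions and no independent support. Among them, that of cholesterol efflux and the retinoid response had the largest share of higher genes. Of 20 tested members, 8 were higher and 1 lower at the unadjusted criterion (45% against 2.79% of all genes), with a median log2 fold change of 0.62 over the list. ABCA1, the transporter that passes cholesterol to lipid-poor apolipoprotein had an FPKM of 5.01, 2.65 and 3.64 with DMSO and 14.2, 13.7 and 12.6 with honokiol. Its log2 fold change was 1.77 (standard error 0.26, adjusted p = 0.0714), and the treatments lay far apart. TGM2, the tissue transglutaminase induced by retinoic acid in myeloid cells, had FPKM of 0.21, 0.21 and 0.36 against 1.63, 3.71 and 5.21, a 13-fold difference (log2 fold change 3.70, adjusted p = 0.0607), with the highest honokiol value in replicate 3 and the lowest in replicate 1. THBD, or thrombomodulin, the endothelial and monocytic receptor that turns thrombin into an anticoagulant, was 2.54-fold higher (33.4, 38.9 and 32 against 78.3, 113 and 84.7, adjusted p = 0.0607). DHRS3, a retinaldehyde reductase induced by retinoic acid, was higher by a log2 fold change of 1.96, and CYP27A1, the sterol 27-hydroxylase, by 1.58.

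Among the carriers of this group, APOC1 was higher by a log2 fold change of 1.04, while APOE and PLTP had log2 fold changes of 0.69 and 0.56 with no overlap between treatments. The gene of liver X receptor alpha itself, NR1H3, had FPKM of 1.69, 2.25 and 2.13 with DMSO and 3.4, 4.07 and 4.59 with honokiol, a log2 fold change of 0.93 (adjusted p = 0.136) that stayed under the fold limit. SREBF1, another target of that receptor, had a log2 fold change of -0.42. CA2, a carbonic anhydrase, was the lower member (log2 fold change -1.49), with FPKM that overlapped between treatments, from 4.62 to 13.4 with honokiol and from 11.1 to 36.6 with DMSO. RARB, CYP26A1 and CETP were under the FPKM limit. Without DMSO replicate 1 the list held 7 higher members and 1 lower, with a median of 0.48.

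**Figure D3:**
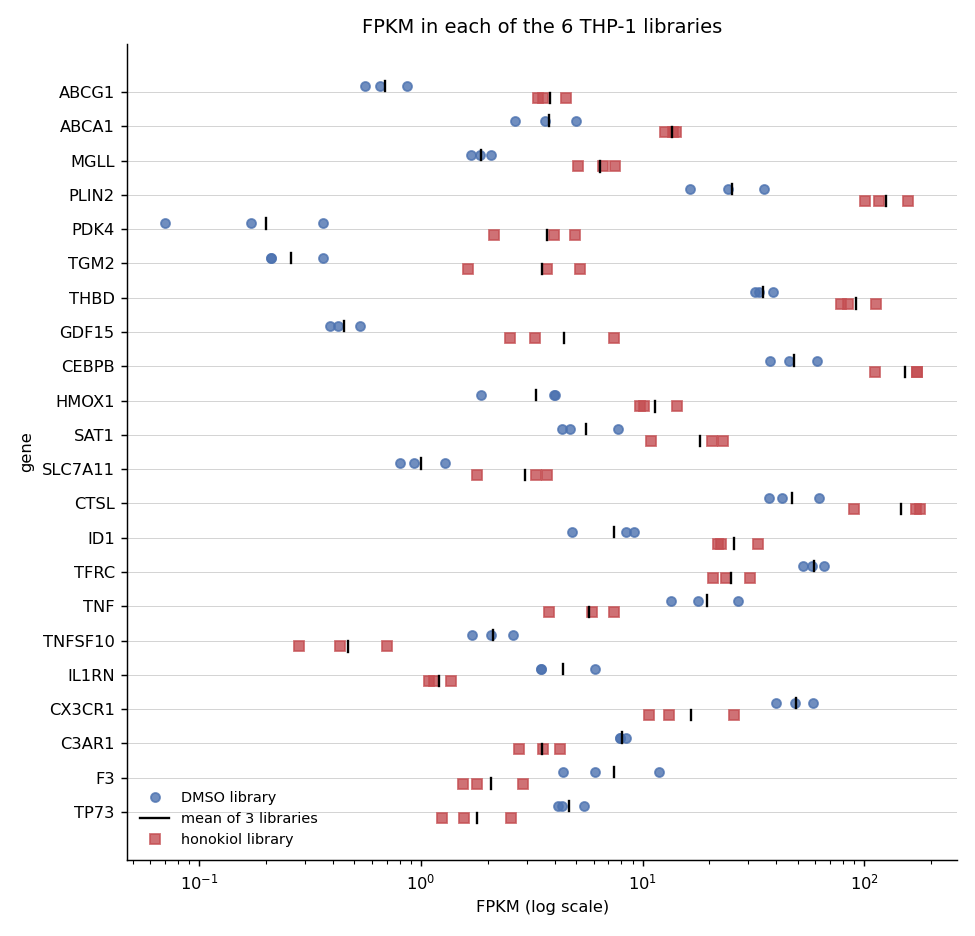
FPKM of genes described in the text, on a log scale, in each library (blue circles: 3 DMSO libraries, red squares: 3 honokiol libraries, black ticks: means of 3). For every gene drawn the libraries of the treatments do not overlap, for example 24.4, 16.3 and 35.4 against 101, 117 and 157 for PLIN2 and 27, 17.8 and 13.5 against 5.93, 7.46 and 3.78 for TNF.

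Some genes of lipid droplets and of the PPAR response were higher as well. Of the 17 tested genes of lipid droplets and lipases, 3 were higher and 0 lower (17.6% against 2.79% of all genes). Of the 24 tested PPAR targets of fatty acid uptake and oxidation, 5 were higher and 0 lower (20.8%). The medians were 0.29 and 0.52. PLIN2, the perilipin that coats droplets in most cells, had FPKM of 24.4, 16.3 and 35.4 against 101, 117 and 157 (log2 fold change 2.25, standard error 0.30, adjusted p = 0.0607), so that the lowest honokiol library lay far above the highest DMSO library. PLIN3, a relative found on nascent droplets, had a log2 fold change of 0.04. PLIN5, the perilipin of oxidative tissues, was higher at a low level (0.33, 0.45 and 0.48 against 0.88, 1.4 and 1.29). Its span overlaps another tested gene on its strand.

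PDK4, the kinase that turns pyruvate dehydrogenase off in favour of fatty acid oxidation, had FPKM of 0.17, 0.07 and 0.36 against 2.14, 4.97 and 3.97, with log2 fold change 4.14 (standard error 0.59, adjusted p = 0.0684). SLC25A20, the carnitine-acylcarnitine carrier of mitochondria, was 2.54-fold higher, with tight values (3.79, 4.25 and 6.24 against 11.8, 12.7 and 13.1, adjusted p = 0.072). ANGPTL4, the secreted inhibitor of lipoprotein lipase, was 4.65-fold higher (0.21, 0.47 and 0.72 against 3.4, 1.02 and 2.33) and CREB3L3, a liver factor of fasting, 3.84-fold higher (0.86, 0.3 and 0.4 against 2.22, 2.3 and 1.92). FABP4, a fatty acid carrier of fat cells and macrophages, showed the widest spread. Its FPKM was 0.75, 0.07 and 1.67 with DMSO and 2.39, 32.1 and 22 with honokiol, so that honokiol replicate 1 lay near the DMSO libraries, and its log2 fold change of 4.43 had a standard error of 1.13 (adjusted p = 0.214).

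Other oxidation genes differed by less than 2-fold. CPT1A, the gate of fatty acids into mitochondria, had a log2 fold change of 0.86 (15.1, 10.8 and 13.3 against 26.1, 23.5 and 24.5), and ACAA2, the last enzyme of the oxidation spiral, one of 0.81. Among the PPAR targets, 12 had an unadjusted p under 0.05 with higher values and 0 with lower ones. Genes of sterol and fatty acid synthesis driven by the factor SREBP had 0 of 28 past the criterion (2 without DMSO replicate 3 and 1 without honokiol replicate 1) and a median of -0.00. In that list HMGCS1 had a log2 fold change of 0.64, with overlapping libraries.

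Of the genes the study followed for ferroptosis, several were higher at the unadjusted criterion. HMOX1 had an FPKM of 4.03, 1.87 and 3.96 with DMSO and 9.7, 14.3 and 10.2 with honokiol, a 3.21-fold difference (log2 fold change 1.68, standard error 0.34, adjusted p = 0.154). BLVRB, biliverdin reductase B, which acts in the same breakdown of heme, had FPKM of 3.92, 4.78 and 5.92 against 9.49, 12.1 and 12.8 (log2 fold change 1.18, adjusted p = 0.0955). TFRC, the transferrin receptor that takes iron up, was lower in all 3 honokiol libraries (58.3, 53.1 and 65.9 against 23.9, 30.5 and 20.7, log2 fold change -1.3, standard error 0.18, adjusted p = 0.0622). The ferritin chains that store iron had overlapping levels, with log2 fold changes of 0.40 for FTL and 0.18 for FTH1. Of the 21 tested genes of heme and iron, 2 were higher and 1 lower (14.3%), with a median of 0.19.

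SAT1, the enzyme that acetylates spermidine and spermine, had FPKM of 4.69, 4.31 and 7.72 with DMSO and 10.9, 20.5 and 22.9 with honokiol (log2 fold change 1.65, standard error 0.32, adjusted p = 0.136). SLC7A11 had FPKM of 1.28, 0.93 and 0.8 against 1.79, 3.31 and 3.71 (log2 fold change 1.48, adjusted p = 0.168). ALOX15, a lipoxygenase that peroxidizes membrane lipids, was lower (2.15, 1.13 and 1.55 against 0.59, 0.71 and 0.51, log2 fold change -1.49). The peroxidase GPX4, which repairs lipid peroxides, had nearly equal levels in both treatments, with FPKM of 63.5, 68.5 and 77.6 and 71.7, 70.0 and 79.7 (log2 fold change 0.03, standard error 0.12). ACSL4, which loads membranes with polyunsaturated fatty acids, had a log2 fold change of 0.43, and CHAC1, which degrades glutathione, one of 0.98 with FPKM of 1.51, 1.91 and 0.98 and 1.48, 2.7 and 4.91, and both overlapped. PTGS2 was under the FPKM limit (0.41, 0.37 and 0.36 with DMSO and 0.24, 0.28 and 0.28 with honokiol), as was HAMP, the iron hormone, with 38, 8 and 12 counts in the DMSO libraries and 0 in each honokiol library. Among the 22 regulators of lipid peroxidation tested, 2 were higher and 1 lower (13.6%), with a median of 0.14.

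Of the 22 tested antioxidant genes of the factor NRF2, 2 were higher and 0 lower at the criterion, 9.09% against 2.79% of all genes. The median was 0.13, and 1 of the 2 was SLC7A11. The other, AKR1C1, an aldo-keto reductase, had FPKM of 0.92, 1.06 and 0.95 against 1.87, 2.45 and 2.82 (log2 fold change 1.23, adjusted p = 0.0788). NQO1 and GCLM, commonly measured NRF2 targets, had log2 fold changes of -0.04 and 0.29 with overlapping libraries. EPHX1, an epoxide hydrolase, was on the low side without overlap (log2 fold change -0.90). At an unadjusted p under 0.05, 4 members were higher (18.2% against 6.84% of all genes) and 1 lower. The honokiol libraries lay above all DMSO libraries for 7 of the 22 and below them for 1, against 13% and 7.62% of all genes. HMOX1 was counted with the heme and iron genes and is not in this list.

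ATF4 targets formed another group of higher genes. Of 26 tested, 7 were higher and 0 lower (26.9%), the median log2 fold change was 0.63, and 22 had a positive log2 fold change. Without honokiol replicate 3 the count was 3 with a median of 0.34, and without DMSO replicate 1 it was 7 with a median of 0.67. GDF15, a stress cytokine that curbs appetite, had FPKM of 0.42, 0.53 and 0.39 against 2.52, 3.27 and 7.39, a 9.29-fold difference (log2 fold change 3.22, standard error 0.44, adjusted p = 0.0607). CEBPB, a factor of myeloid maturation and of the stress response and 1 of the abundant genes of the list, had FPKM of 37.5, 45.6 and 61.2 against 111, 173 and 173 (log2 fold change 1.62, standard error 0.22, adjusted p = 0.0607). In each case the 3 honokiol libraries lay above every DMSO library.

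ASNS, asparagine synthetase, had FPKM of 1.59, 1.6 and 1.36 and 2.99, 3.42 and 5.79 (log2 fold change 1.36), and PSAT1, of serine synthesis, 13.4, 19.9 and 16 and 27.1, 33 and 53.4 (log2 fold change 1.15). For both genes honokiol replicate 3 was highest. DDIT3, or CHOP, which promotes death under prolonged stress, had a log2 fold change of 1.36 and INHBE, an activin subunit, one of 1.42. MIR616, which lies within DDIT3 on the same strand, was also higher (0, 0.07 and 1.41 against 1.97, 3.47 and 5.43). The precursor and its host cannot be told apart in such counts. Chaperones of the endoplasmic reticulum had 0 of 23 members past the criterion and a median of 0.15, with 6 at an unadjusted p under 0.05 and higher values. HSPA5, or BiP, the central chaperone of that compartment, had a log2 fold change of 0.68, with FPKM of 179, 243 and 213 and 299, 276 and 482. The cytosolic aminoacyl-tRNA synthetases, which load amino acids on tRNA, likewise had 0 of 20 past the criterion, a median of 0.21 and 6 at an unadjusted p under 0.05 with higher values. Cytosolic heat shock proteins had 0 of 19 past it and a median of -0.13, which was 0.01 without DMSO replicate 1.

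**Figure D4:**
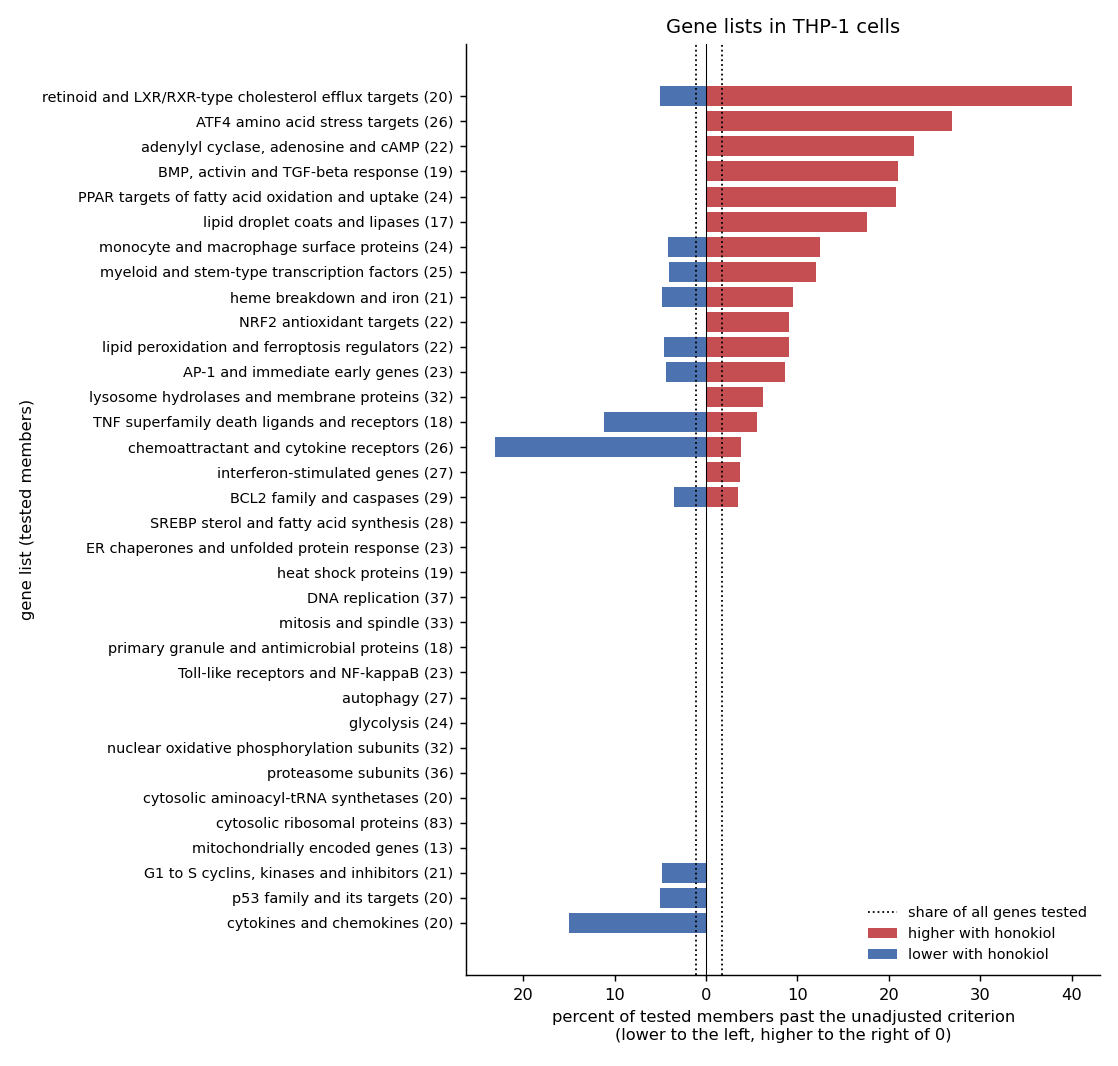
Percent of the tested members of 34 gene lists that met the unadjusted criterion (red: higher, to the right of 0, blue: lower, to the left, number of tested members in brackets). Dotted lines mark the 1.73% higher and 1.07% lower among all genes tested, and bars reach 40% higher for the cholesterol efflux and retinoid list and 23.1% lower for the receptor list.

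Genes of signalling by cyclic AMP and by the TGF-beta superfamily were higher in part. Of 22 tested genes of adenylyl cyclase, adenosine and cAMP, 5 were higher and 0 lower (22.7%), with a median of 0.15, and without honokiol replicate 1 the count was 3. ADCY1, a calmodulin-stimulated adenylyl cyclase, had FPKM of 1.37, 1.64 and 1.4 against 2.82, 5.24 and 5.75 (log2 fold change 1.59, adjusted p = 0.0831) and ADCY6, a related cyclase, 1.63, 2.87 and 3.29 against 4.71, 4.79 and 6.55. RAPGEF3, or EPAC1, a cAMP-activated exchange factor, was higher at a low level (0.25, 0.18 and 0.38 against 0.67, 0.78 and 0.99). The adenosine receptor genes ADORA1 and ADORA2A had log2 fold changes of 1.20 and 1.99. The latter overlaps a readthrough gene on its strand and rests on honokiol replicate 1, at an FPKM of 2.68 against 0.58 and 0.67 in the other honokiol libraries.

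Of 19 tested genes of the BMP, activin and TGF-beta response, 4 were higher and 0 lower (21.1%), with a median of 0.26, and GDF1 and INHBE are among them. ID1, the inhibitor of differentiation induced by BMP, had FPKM of 4.78, 9.12 and 8.43 against 22.6, 21.8 and 33.2 (log2 fold change 1.75, standard error 0.26, adjusted p = 0.0738).

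Among the 34 lists, receptors and ligands of inflammation had the largest shares of lower genes at the criterion with its 2-fold limit. Without that limit, at an unadjusted p under 0.05, DNA replication (43.2%) and the death ligands and receptors of the TNF superfamily (33.3%) had larger shares than these receptors (30.8%) and ligands (25%). Of 20 tested cytokines and chemokines, 0 were higher and 3 lower (15%), and of 26 tested receptors for chemoattractants and cytokines, 1 was higher and 6 lower (26.9%), with medians of -0.12 and -0.30. The first of these was -0.02 without DMSO replicate 1 and -0.28 without DMSO replicate 2 or honokiol replicate 2. TNF had an FPKM of 27, 17.8 and 13.5 with DMSO and 5.93, 7.46 and 3.78 with honokiol, 3.57-fold lower (log2 fold change -1.84, standard error 0.35, adjusted p = 0.136). IL1RN, the natural antagonist of interleukin 1, was 3.81-fold lower (6.07, 3.49 and 3.48 against 1.14, 1.37 and 1.09, adjusted p = 0.0814). The third, SPP1, or osteopontin, had overlapping libraries (2.88, 0.8 and 3.19 against 1.01, 0.44 and 0.67). IL1B, IL6, IL10, CXCL1 and CXCL2 were under the FPKM limit, so that these cytokines are not described.

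The lower receptors were of several classes. C3AR1, the receptor of complement fragment C3a, had FPKM of 7.86, 7.9 and 8.37 and 4.23, 3.56 and 2.76 (log2 fold change -1.25, standard error 0.19, adjusted p = 0.0776) and PTAFR, that of platelet-activating factor, 8.15, 6.22 and 8.6 and 3.19, 3.74 and 2.77 (log2 fold change -1.3, adjusted p = 0.0776). FPR1, the formyl peptide receptor, was 4.43-fold lower at a low level (1.63, 1.09 and 0.77 against 0.33, 0.28 and 0.21). CX3CR1, the fractalkine receptor of monocytes, had FPKM of 48.5, 58.7 and 40.1 against 25.9, 13.1 and 10.6 (log2 fold change -1.62), with honokiol replicate 1 the highest of its group. IL17RA (log2 fold change -1.27) and CXCR3 (-2.90) completed the 6, and IL15RA was the higher member (1.3). Without DMSO replicate 1 the count was again 1 higher and 6 lower, with a median of -0.13. In the list of Toll-like receptors and NF-kappaB, 0 of 23 were past the criterion (1 lower without DMSO replicate 3 or honokiol replicate 1), with log2 fold changes of 0.26 for TLR4, the endotoxin receptor, and -0.90 for its adaptor MYD88. Without DMSO replicate 2, 0 of 27 tested interferon-stimulated genes were higher and 2 lower. With all libraries 1 was higher and 0 lower (3.70%, near the 2.79% of all genes). The higher one was GBP4, a guanylate-binding protein (1.81, 1.51 and 2.16 against 4.42, 3.71 and 3.83).

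Ligands and receptors of the TNF superfamily that act in cell death had 1 higher and 2 lower members of 18 (16.7%), with a median of -0.44, which was -0.26 without DMSO replicate 1 and -0.28 without honokiol replicate 3. TNFSF10, or TRAIL, a ligand that kills through its death receptors, was 4.7-fold lower, with FPKM of 2.6, 1.69 and 2.07 against 0.7, 0.43 and 0.28 (log2 fold change -2.23, standard error 0.39, adjusted p = 0.118). TNFRSF21, death receptor 6, was the higher member (8.84, 8.6 and 8.54 against 14, 26.1 and 26.2, log2 fold change 1.29), with honokiol replicate 1 below the other honokiol libraries. Of 29 BCL2 family members and caspases, 1 was higher and 1 lower (6.90% against 2.79% of all genes). The count was 0 without DMSO replicate 2 and 1 without honokiol replicate 2 or 3. BCL2, the founding survival gene, was lower (2.49, 3.58 and 2.4 against 1.64, 1.27 and 1.18, log2 fold change -1.10, adjusted p = 0.136), while its relative BCL2A1 was higher (2.64, 1.99 and 3.88 against 4.16, 8.23 and 6.69, log2 fold change 1.11). Without DMSO replicate 1, 1 of 20 genes of the p53 family and its targets was higher and 1 lower. With all libraries 0 were higher and 1 lower (5% against 2.79% of all genes). This was TP73, a p53 relative, with FPKM of 4.16, 5.41 and 4.31 against 2.54, 1.24 and 1.56 (log2 fold change -1.43, adjusted p = 0.136), and CDKN1A, the p53-induced inhibitor p21, had a log2 fold change of -0.46.

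Genes of DNA replication were lower by small amounts and in large number. None of the 37 tested was past the fold limit (0%), yet 32 had a negative log2 fold change, 16 had an unadjusted p under 0.05 with lower values (43.2% against 6.22% of all genes) and 0 with higher values, and the median was -0.36. CDC6, which loads the replicative helicase, had FPKM of 19.5, 16.2 and 13.8 with DMSO and 10.8, 11.2 and 9.35 with honokiol (log2 fold change -0.73, standard error 0.19, adjusted p = 0.212), and MCM4, a subunit of that helicase, 40.8, 31.4 and 38.4 and 20.8, 25.9 and 24.9 (log2 fold change -0.69). The ribonucleotide reductase subunit RRM2 had a log2 fold change of -0.72 and POLE, the catalytic subunit of polymerase epsilon, one of -0.67. Without DMSO replicate 1 the median of the list was -0.26, and without honokiol replicate 1 it was -0.39. Mitosis and spindle genes had a median of -0.05 over 33 tested members (0.09 without DMSO replicate 1 and -0.15 without DMSO replicate 3), with 1 higher and 1 lower at an unadjusted p under 0.05. Whether the lists differ was not tested.

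At the entry to the cell cycle, 0 of 21 tested genes were higher and 1 lower (4.76% against 2.79% of all genes), with a median of -0.34. Without DMSO replicate 1 the count was 0 and the median -0.13, and without honokiol replicate 1 or 2, 2 were lower. The lower member was CCNE2, cyclin E2, with FPKM of 6.56, 3.14 and 4.8 against 1.85, 2.35 and 2.28 (log2 fold change -1.23). CCND3, a D-type cyclin of blood cells, had a log2 fold change of -0.89 with no overlap (37.5, 45.4 and 37.3 against 27.4, 24.9 and 15.1). Glycolysis genes had 0 of 24 past the criterion and a median of -0.32, with 5 lower and 1 higher at an unadjusted p under 0.05. Without DMSO replicate 1 or honokiol replicate 1, 2 were lower, with medians of -0.51 and -0.44, and without DMSO replicate 3 or honokiol replicate 2 the median was -0.14 or -0.13. LDHA, lactate dehydrogenase A, had overlapping FPKM of 74, 117 and 142 and 87.5, 41.2 and 55.9 (log2 fold change -0.89).

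**Figure D5:**
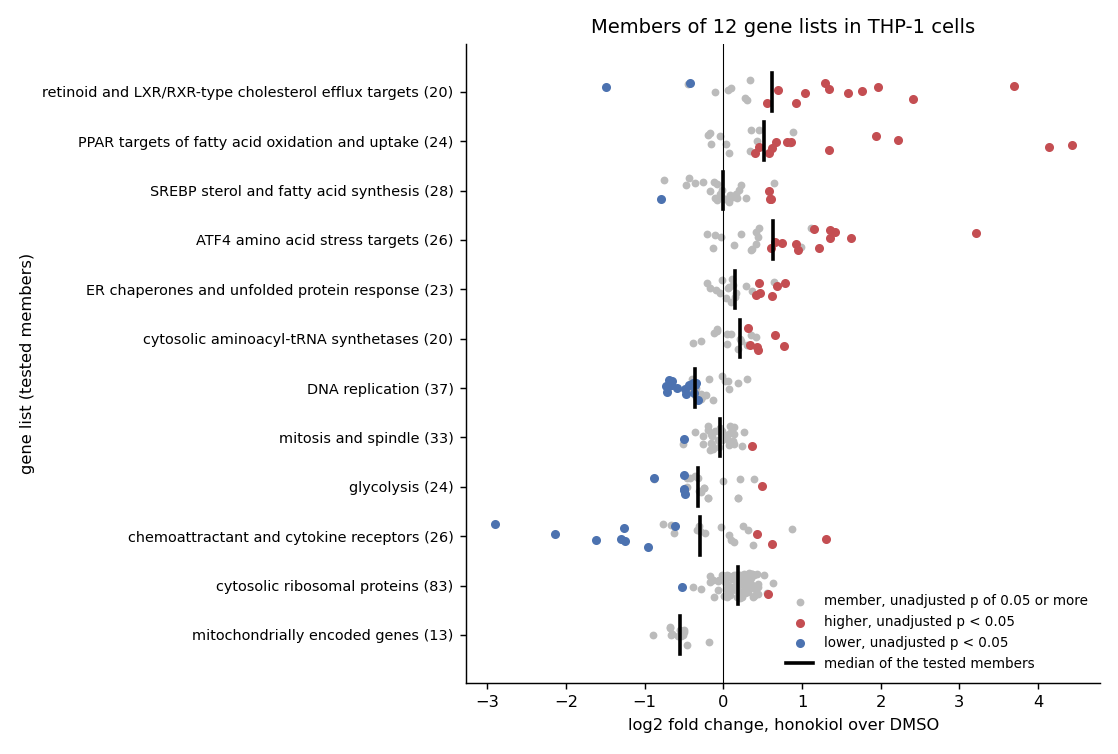
Log2 fold change of each tested member of 12 lists (points, red or blue where the unadjusted p is under 0.05, with the median as a black bar and the number of tested members in brackets). The DNA replication genes gather to the left of 0 with a median of -0.36, the cholesterol efflux and ATF4 lists lie to the right with medians of 0.62 and 0.63, and the SREBP list is centred on -0.00.

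Surface proteins of monocytes and macrophages went in both directions. Of 24 tested, 3 were higher and 1 lower (16.7%), with a median of 0.11, and without honokiol replicate 1 or 2 it was 5 and 1 or 1 and 1. CD1D, which presents lipid antigens, had FPKM of 3.65, 5.11 and 5.79 against 11.8, 13.7 and 16.2 (log2 fold change 1.47, standard error 0.18, adjusted p = 0.0607), and CD14, the co-receptor of endotoxin, 2.19, 2.25 and 3.39 against 4.94, 8.75 and 4.48 (log2 fold change 1.16). The scavenger receptor MARCO was also higher (1.11), and SIGLEC1, a sialic acid receptor of macrophages, was lower (-1.02). Among 25 myeloid and stem-type transcription factors, 3 were higher and 1 lower (16%), with a median of -0.00. FOXC1, a factor expressed aberrantly in some AML, had FPKM of 0.46, 0.69 and 0.59 against 1.51, 1.94 and 1.37 (log2 fold change 1.41), and KLF2, a factor of quiescence, was lower (log2 fold change -1.18) through honokiol replicates 2 and 3 (3.02, 3.84 and 2.99 against 2.83, 0.89 and 0.76). MYB, which drives proliferation of progenitors, had a log2 fold change of -0.83 with no overlap, while SPI1, the master factor of monocytes, had one of -0.00. Primary granule proteins had 0 of 18 past the criterion and a median of -0.04.

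Immediate early genes of the AP-1 group were also mixed, with 2 higher and 1 lower of 23 (13%), which was 2 and 3 without DMSO replicate 2 and 1 and 0 without honokiol replicate 3. MAFF, a small MAF factor, was 3.57-fold higher (0.3, 0.47 and 0.89 against 1.38, 2.33 and 2.4) and DUSP1, a phosphatase of MAP kinases, 2.11-fold higher (0.61, 0.73 and 0.62 against 1.17, 1.43 and 1.72). FOSL1, a FOS relative, was the lower member, with overlapping libraries (4.64, 3.12 and 1.63 against 1.94, 1.28 and 0.97).

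In the lysosome 2 of 32 tested genes were higher and 0 lower (6.25% against 2.79% of all genes), with a median of 0.13. At an unadjusted p under 0.05, 8 were higher and 0 lower. Without DMSO replicate 1, honokiol replicate 2 or honokiol replicate 3, 1 was higher at the criterion. CTSL, the protease cathepsin L, had FPKM of 42.3, 37.3 and 62.6 against 89.8, 172 and 178 (log2 fold change 1.57, standard error 0.29, adjusted p = 0.134), and CTSD, cathepsin D, 233, 267 and 391 against 487, 552 and 616 (log2 fold change 0.85). Autophagy genes had 0 of 27 past the criterion, against 1 higher without DMSO replicate 1 and 2 without honokiol replicate 1, and a median of -0.02. The cargo receptor SQSTM1, or p62, had FPKM of 21.4, 20.1 and 21.1 and 30.3, 45.8 and 48.9 (log2 fold change 0.94) and WIPI1 a log2 fold change of 0.90, both without overlap.

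Lists of the basic machinery had no member past the criterion, which 2.79% of all genes met. The nuclear subunits of oxidative phosphorylation (32 tested) and the proteasome (36 tested) had medians of 0.05 and 0.04. Of 83 tested cytosolic ribosomal proteins 72 had a positive log2 fold change, with a median of 0.19, which was 0.02 without DMSO replicate 1. All 13 mitochondrially encoded genes had a negative log2 fold change, with a median of -0.55, which was -0.02 without DMSO replicate 1. These values move with that library, the one with the high mitochondrial share.

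Beyond these lists, the genes with the largest differences, taken where the mean FPKM was 1 or more and the treatments did not overlap, were of several kinds. NGFR, the low-affinity neurotrophin receptor, was higher with a wide spread (0.1, 0.89 and 0.59 against 5.24, 1.19 and 6.4, log2 fold change 3.0, standard error 0.80), and so was DDIT4L, an inhibitor of mTOR (1, 0.32 and 0.98 against 1.27, 6.43 and 4.44), for which honokiol replicate 1 lay near the DMSO libraries. FMNL2, a formin that builds actin filaments, had tighter values (0.36, 0.45 and 0.59 against 1.61, 2.5 and 2.37, log2 fold change 2.16, standard error 0.26, adjusted p = 0.0607), as had MGARP, a mitochondrial protein whose gene overlaps NDUFC1 on its strand (0.52, 0.45 and 0.57 against 2.11, 2.54 and 2.75). SEMA6B, a semaphorin, and PCOLCE2, an enhancer of procollagen processing, had log2 fold changes of 2.15 and 2.08.

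On the lower side, F3, tissue factor, the starter of blood coagulation, had an FPKM of 6.11, 11.8 and 4.36 with DMSO and 2.89, 1.78 and 1.55 with honokiol, 3.69-fold lower (log2 fold change -1.88, standard error 0.40, adjusted p = 0.165). With THBD higher and F3 lower, a receptor that limits coagulation and its starter differed in opposite directions. GPR141, an orphan receptor that overlaps EPDR1 on its strand, had tight values (2.32, 1.91 and 1.92 against 0.51, 0.52 and 0.43, log2 fold change -2.12, adjusted p = 0.0607), as had RNASE6, an antimicrobial ribonuclease of monocytes (3.23, 1.96 and 2.69 against 0.81, 0.55 and 0.67). RXFP1, the relaxin receptor, and GLIPR1, a p53 target, had log2 fold changes of -1.85 and -1.71, and those of MINDY2, a deubiquitinase, and APOLD1 were -1.68 and -1.68. For RPS26P47, ARHGAP11B and SNURF the difference rests partly on DMSO replicate 1, at an FPKM of 4.59, 4.02 and 4, against 0.65 to 1.3 in the other DMSO libraries. RPS26P47 is a pseudogene of a ribosomal protein and ARHGAP11B a partial copy of ARHGAP11A, so their fragments may belong to their parent genes, and SNURF shares its strand with SNRPN. P2RY11, a purine receptor, overlaps PPAN and its readthrough gene on the same strand (4.03, 3.85 and 2.17 against 1.31, 0.61 and 0.5).

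The authors' table assigns KEGG pathways to genes, and 298 pathways had at least 10 tested genes. Of the 4755 tested genes with a pathway, 86 were higher and 49 lower at the unadjusted criterion (2.84%). Cholesterol metabolism had 5 higher and 0 lower of 31 (16.1%), namely APOC1, LRP1, CYP27A1, ABCA1 and ANGPTL4, with a median log2 fold change of 0.22. The PPAR signalling pathway had 5 higher and 0 lower of 44 (11.4%), and 14 of its genes had an unadjusted p under 0.05 with higher values against 1 with lower values. ABC transporters had 3 higher and 0 lower of 23 (13.0%), ABCA1, ABCG1 and ABCC3. Ferroptosis had 3 higher (SLC7A11, SAT1 and HMOX1) and 2 lower (ALOX15 and TFRC) of 35 (14.3%), with a median of 0.11. Cytokine-cytokine receptor interaction had 7 higher and 7 lower of 99 (14.1%). The largest share was that of steroid hormone biosynthesis, with 3 of 13 higher (23.1%), the aldo-keto reductases AKR1C1 and AKR1C2, which are near-identical genes, and the cytochrome CYP1B1. A pathway with few tested genes reaches a high share with few calls, and no test between pathways was made.

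The response was also set against that of U-937, the other line of the study, in a fit of all 12 libraries that tested the difference of the honokiol effects. The difference passed an adjusted p of 0.05 for 16 of the 14600 genes (0.11%), and among the named genes for TXNIP and FOXC1. The log2 fold change of TXNIP, the inhibitor of thioredoxin that responds to glucose, was -0.55 in THP-1 (42, 47.9 and 49.4 against 36.4, 30.7 and 31.4) and 1.26 in U-937, a difference of -1.81 (standard error 0.25, adjusted p = 0.0254). FOXC1 had log2 fold changes of 1.41 and -0.55, a difference of 1.96 (standard error 0.27, adjusted p = 0.0254). No other gene named above is shown to be particular to THP-1. For ABCG1 the difference was 1.11 (standard error 0.61, adjusted p = 0.596), for PLIN2 -1.25 (standard error 0.78, adjusted p = 0.656), for HMOX1 0.27 (standard error 0.43, adjusted p = 0.92) and for TNF -0.78 (standard error 0.66, adjusted p = 0.769).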

How the data were processed

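RNA of THP-1 cells was extracted with Trizol, poly(A) mRNA was selected and paired-end libraries were sequenced on an Illumina instrument. The labels and the study's methods name different instruments and different amounts of RNA. The submitters' processing notes name HISAT2 2.0, StringTie 1.3.0, Bowtie 0.12.2 and the mouse build mm8. The gene identifiers are human, and of the 36866 genes listed 35762 were found in GENCODE 29 (GRCh38), 35750 of them with an overlapping span, so coordinates are given for GRCh38. The deposited table holds 1 FPKM value and 1 estimated count per gene and library. For FPKM the authors scaled each value to the length of the transcript and the size of the library. The deposited estimated counts are whole numbers that were not normalized. Low values gather at 4 and 8, so a fragment may be worth more than 1 count and counting error may be larger than the counts alone imply.

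Genes whose FPKM reached 0.5 in 3 or more of the 6 THP-1 libraries were tested on the counts as deposited, with TMM normalization in edgeR 4.0.16 (R 4.3.3), the quasi-likelihood test and Benjamini-Hochberg adjustment over all 14600 genes. The fit had no term for the replicate. The difference between lines was tested as the interaction of line and treatment over 12 libraries. DESeq2 1.42.0 and limma 3.58.1 were alternatives. The script was tested on simulated counts. Other alternatives were the pseudocount, the normalization, the filter, counts divided by 4, mitochondrial genes left out, all 12 libraries, the criterion, a replicate block and each library left out.

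The members, the gene lists and the rule for named genes were chosen with earlier results of these data known. Named genes are the DEGs, the 15 highest and 15 lowest log2 fold changes among genes with an unadjusted p under 0.05, a mean FPKM of 1 or more, treatments that did not overlap and a symbol that is no clone name, up to 4 called members of each list with members needed to describe it, and genes the study followed for ferroptosis. Lists and KEGG pathways, as assigned in the authors' table, are described by counts and medians, with no set test. NBPF19, LRP1, ABCC3, AKR1C2 and CYP1B1 were named after their values were seen. Promoters came from RefSeq (GRCh38.p14). Some members of the lists are counted but not reported here by name.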

Additional observations from a re-analysis of the deposited data

Results flagged for a closer look

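The effect of honokiol differed between the lines for 2 of the named genes by the test of the difference in a fit of all 12 libraries with edgeR's quasi-likelihood test. For TXNIP the log2 fold change of THP-1 minus that of U-937 was -1.81 (adjusted p = 0.0254), with -0.55 in THP-1, where all 3 honokiol libraries lay below the DMSO libraries, and 1.26 in U-937. For FOXC1 the difference was 1.96 (adjusted p = 0.0254), with 1.41 in THP-1, where all 3 honokiol libraries lay above the DMSO libraries, and -0.55 in U-937. With the counts divided by 4 this test passed 0 genes (1319 at an unadjusted p under 0.05), and DESeq2 passed 212.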

How the results depend on the processing

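The 6 DEGs of THP-1 became 250 with DESeq2 (151 higher and 99 lower, the 6 included), 24 in a fit of all 12 libraries (20 higher and 4 lower, 4 of the 6 included), 1 with an FPKM limit of 1, 0 without an FPKM limit, 0 with limma-trend at each of the pseudocounts 0.5, 0.1 and 1, and 0 with a replicate block. Leaving out each library gave 0 to 48. RLE size factors, mitochondrial genes left out, counts divided by 4 and no limit on the fold change gave 5 or 6. The 408 genes of the unadjusted criterion became 220 with limma-trend at a pseudocount of 0.5, 116 at 1, 1157 without an FPKM limit and 1907 without a limit on the fold change, and leaving out each library gave 298 to 649. Without honokiol replicate 1 the split was 332 higher and 317 lower, against 252 and 156. The genes that differ between the lines numbered 16, 0 with counts divided by 4 and 212 with DESeq2. The cause of these differences was not tested. In their deviations from the group means, libraries of the same number had correlations of -0.112, -0.184 and 0.128. Not every library correlated best with its own number. With 3 libraries a side these correlations cannot decide whether the numbers pair the samples, and the labels do not say. The replicate block gave 423 genes at the unadjusted criterion. Of the named genes' results under the alternatives, 1228 kept their side of the adjusted threshold, 90 newly passed it and 64 no longer passed it. The 64 all fall on the 6 DEGs, which stayed DEGs in 5 to 8 of their 16 or 17 other settings. Reversals, of which there were 0, were counted only where a gene was a DEG in the main or the other fit. Other genes near 0 could change sign, such as GPX4 (log2 fold change from -0.02 to 0.08). Of lists, the medians of the ribosomal proteins and the mitochondrially encoded genes fell near 0 without DMSO replicate 1. Low counts limit genes such as FABP4, TGM2 and PDK4, whose DMSO libraries held little signal, and 3 libraries a side limit every call.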
